A study of Rattus norvegicus with 35 samples.

Results

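Hippocampal gene expression after 7 days of exemestane was compared with that after vehicle in ovariectomised rats. The members are the 5 libraries whose treatment label names exemestane and the 5 whose label names vehicle, 10 of the 35 libraries in the series, chosen by label alone. All animals were female Sprague Dawley rats that had surgery at 6 months of age, followed by a washout of 2 weeks and daily intraperitoneal injection. The vehicle and drug groups had all been ovariectomised, and the sham group kept its ovaries. The composition of the vehicle is not given in the sources used here. The labels give doses per kg of 0.16 mg exemestane, 4.03 mg anastrozole, 9.68 mg raloxifene, 3.23 mg tamoxifen and 0.16 mg estradiol, with 5 libraries in each of the 7 groups. As labelled, exemestane and estradiol were given at an equal dose, and no value in the files tests that label. The labels do not tie each library to its own animal, so the p-values below measure the spread between libraries, which may be partly technical.

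Aromatase, the product of Cyp19a1, converts androgens into estrogens in the ovary and also in fat, bone and brain, hippocampal neurons included. Exemestane is a steroid resembling the natural androgen substrate, and it inactivates the enzyme by binding it irreversibly. After ovariectomy the comparison asks what changes in the hippocampus when the estrogen synthesis that remains outside the ovary is blocked.

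The 35 libraries held between 5578204 and 12093294 counts (median 8010522), and the 10 compared here between 6964580 and 9289324. The 35 libraries fell into classes of high and low share of Rn7sl1, which encodes the RNA part of the particle that docks ribosomes at the endoplasmic reticulum, with no library between 3.84 and 4.47% of its counts. Exemestane replicates 1 to 5 had shares of 3.84, 3.58, 3.67, 3.51 and 5.81%, and vehicle replicates 1 to 5 had 4.70, 4.84, 4.74, 3.44 and 4.68%. Thus 4 exemestane libraries and 1 vehicle library were of low share, while exemestane replicate 5 and the other 4 vehicle libraries were of high share. The mean share was 4.08 ± 0.971% in exemestane and 4.48 ± 0.585% in vehicle (SD, n = 5 each), a difference that did not exceed the spread (exact two-sided permutation test, p = 0.540; smallest possible p = 0.00794). Without exemestane replicate 5 the difference was -0.829 percentage points (exact permutation p = 0.0476). The tissue label was checked on 22 hippocampal field genes, whose summed level ran from 3300 to 4077 CPM (counts scaled to library size) in exemestane and from 3738 to 4123 CPM in vehicle. The choroid plexus marker Ttr stood between 0.734 and 1790 CPM in exemestane libraries and between 5.92 and 2767 CPM in vehicle libraries, high in 2 libraries of each group.

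**Figure D1:**
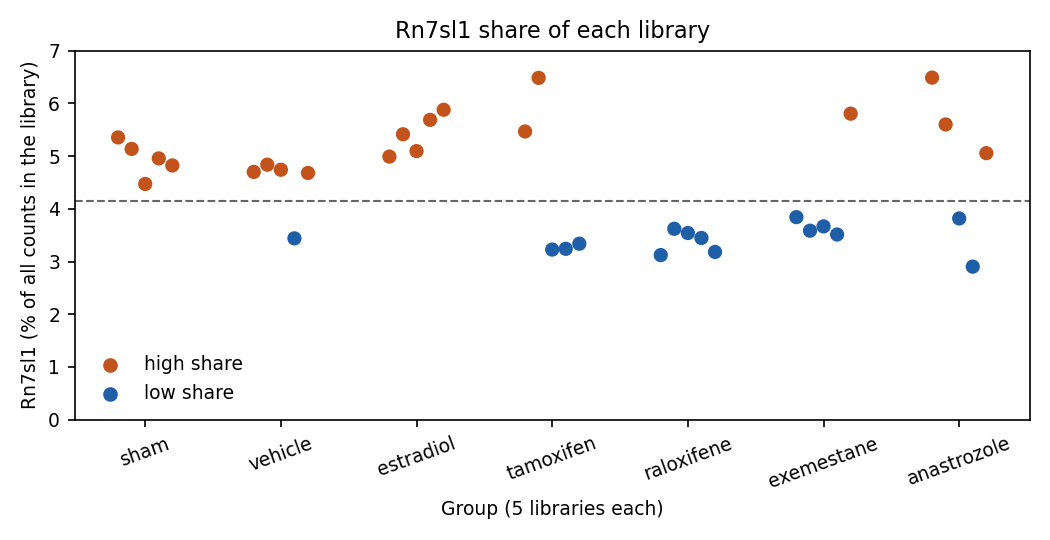
Share of all counts assigned to Rn7sl1 (y axis, %) in each library, by group (x axis, 5 points each); the dashed line at 4.16% separates the classes and colours give the class. Exemestane has 4 low-share libraries and vehicle has 1.

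With treatment as the only term (the fit as designed), 938 of 14411 genes, 6.51%, passed an edgeR quasi-likelihood test at a Benjamini-Hochberg adjusted p under 0.05. Of these, 585 rose in exemestane (4.06% of the genes tested) and 353 fell (2.45%), and the lowest adjusted p was 0.0382. Folds were mostly small: 251 of the 938 reached a log2 fold change of 0.5 in size and 31 reached 1. The count moved with single libraries. It was 0 when any of 8 libraries was left out (3434 to 3949 genes at an unadjusted p under 0.05), 4155 without exemestane replicate 5 and 2834 without vehicle replicate 4, which are the libraries that depart from the class of their group. In the exemestane and vehicle libraries fitted alone it was 0, with 4261 genes at an unadjusted p under 0.05.

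With the Rn7sl1 class as a term, the edgeR count was 0 (0.0%) and the DESeq2 count 8. The lowest edgeR adjusted p was 0.232, and 1004 genes (6.97%) had an unadjusted p under 0.05, 3.4% higher and 3.57% lower in exemestane. With log2 of the share as a continuous covariate in place of the class, edgeR called 2272, of which 1333 rose. The call therefore depended on the form in which the share entered the model. All 938 genes called as designed kept their sign with class, but their folds shrank to a median of 0.450 of the value as designed. The median of those that rose went from 0.42 to 0.17 and the median of those that fell from -0.38 to -0.21 (log2). Of the 938, 537 had an unadjusted p under 0.05 with class. Of the same genes, 820 differed between the classes in the same direction and 1 in the opposite direction, and 7473 of all genes differed between the classes. In 67 of the 938 the fold with class was at least 80% of the fold as designed, 25 higher and 42 lower in exemestane. The level of exemestane replicate 5, of high share, lay within the range of the high-share vehicle libraries for 441 of the 938 genes. Vehicle replicate 4, of low share, lay within the range of the low-share exemestane libraries for 52. Both counts cover only genes called from these same libraries, and all genes tested were not counted this way. They therefore do not measure the effect of class. Treatment and class are partly confounded in these 10 libraries, and folds are given below from both fits.

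**Figure D2:**
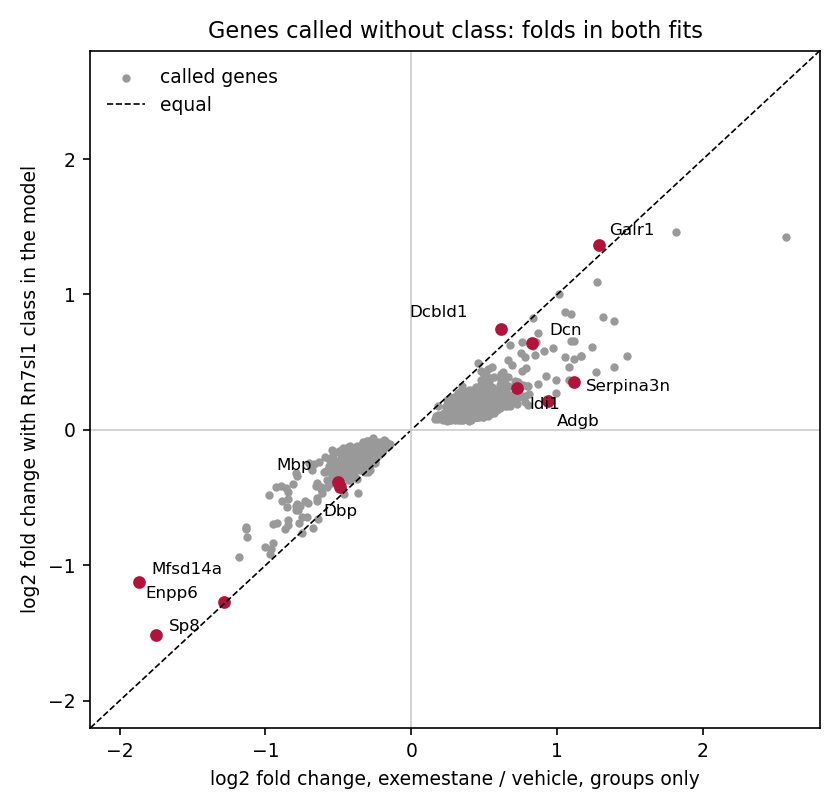
Log2 fold change, exemestane over vehicle, of the 938 genes called with groups only (x axis) against the fold with Rn7sl1 class in the model (y axis); each point is a gene and the dashed line marks equal folds. Most points lie nearer 0 on the y axis, while Galr1, Enpp6 and Dcbld1 lie on or beyond the line.

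All 5 exemestane libraries lay above all 5 vehicle libraries for 221 genes (1.53% of those tested) and below them for 210 (1.46%). Genes that were also called as designed numbered 101 above and 82 below, which are 0.701% and 0.569% of the genes tested. Galr1, Enpp6, Dbp and Ciart, described below, were among them.

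Galr1, a receptor for the neuropeptide galanin that couples to inhibitory G proteins, was higher after exemestane. It stood at 3.996, 3.07, 4.01, 3.52 and 5.42 CPM in exemestane replicates 1 to 5 and at 3.03, 1.25, 1.14, 1.21 and 1.63 CPM in vehicle replicates 1 to 5. Every exemestane library lay above every vehicle library, although vehicle replicate 1 came close to exemestane replicate 2, and the high-share exemestane library was the highest of all 10. These levels rest on 22 to 44 counts per exemestane library and 9 to 22 per vehicle library. The log2 fold change was 1.28 ± 0.35 (SE) as designed (edgeR adjusted p = 0.0426) and 1.36 ± 0.38 with class (unadjusted p = 0.000969, adjusted p = 0.465). Left-out libraries moved the fold with class between 1.14 and 1.64. Galr1 was the only 1 of 27 neuropeptide receptor genes tested that rose, and 1, the delta opioid receptor gene Oprd1, fell. Over all genes tested, 4.06% rose and 2.45% fell as designed. Oprd1 went from -0.84 ± 0.25 as designed to -0.46 ± 0.23 with class. The other galanin receptor tested, Galr2, stood at 0.986 ± 0.329 CPM in exemestane and 1.199 ± 0.561 CPM in vehicle and was not called. Gal, which encodes the ligand, was near 1 CPM, with 0.664 ± 0.142 against 1.24 ± 0.684 CPM (SD, n = 5 each; edgeR adjusted p = 0.248). Of 24 neuropeptide precursor genes, 0 passed.

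Enpp6, which encodes a choline-specific phosphodiesterase and marks oligodendrocytes as they start to differentiate, was lower after exemestane. It stood at 2.62, 2.23, 2.12, 2.20 and 2.71 CPM in exemestane replicates 1 to 5, against 4.68, 4.11, 5.95, 7.93 and 6.40 CPM in vehicle replicates 1 to 5. The exemestane libraries kept to a narrow band of 15 to 22 counts, all below the vehicle libraries, which held 34 to 59 counts. Enpp6 had a log2 fold change of -1.28 ± 0.33 as designed (edgeR adjusted p = 0.0394) and of -1.27 ± 0.36 with class (unadjusted p = 0.00132, adjusted p = 0.468). It differed little between the classes themselves (-0.02 on the log2 scale, low over high share). Of the 17 genes of oligodendrocyte precursors and newly forming cells, Enpp6 was the only one called, beside 6.51% of all genes tested. Pdgfra, the growth factor receptor of precursors, stood at 0.02 ± 0.10 on the log2 scale, and Bcas1, of cells about to myelinate, at -0.24 ± 0.11, in the fit as designed. The list's median fold was -0.18 as designed and -0.06 with class, beside -0.01 and 0.00 over all genes tested. In bulk tissue, fewer cells of a type and less RNA per cell cannot be told apart.

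Myelin genes formed the largest group of called genes with a common direction among the lists described. Of 23 myelin and mature oligodendrocyte genes tested, 8 fell as designed and 0 rose, beside 2.45% and 4.06% of all genes tested. Among the 8 that fell were Mbp, Mag, Mobp, Cnp, Gjb1, Septin4 and Sox10. Mbp encodes myelin basic protein, Mag a glycoprotein at the axon contact, Mobp a myelin basic protein of oligodendrocytes and Cnp a phosphodiesterase of the myelin sheath. Gjb1 encodes a connexin of oligodendrocytes, and Sox10 is the transcription factor of the lineage. The list's median fold was -0.29 as designed and -0.26 with class. With class all 23 folds were negative, and 11 had an unadjusted p under 0.05, beside 3.57% of all genes tested that were lower at that p. The summed level of the list ran from 5726 to 7830 CPM in exemestane and from 7272 to 8915 CPM in vehicle, so the groups overlapped.

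Within this group Mbp stood at 2295, 2391, 2548, 2165 and 3405 CPM in exemestane replicates 1 to 5 and at 3672, 3376, 3557, 3660 and 3840 CPM in vehicle replicates 1 to 5. The 4 low-share exemestane libraries were below all vehicle libraries, the high-share exemestane library lay inside the vehicle range, and the low-share vehicle library stayed with the other vehicle libraries. The log2 fold change of Mbp was -0.50 ± 0.11 as designed (edgeR adjusted p = 0.0394) and -0.39 ± 0.11 with class (adjusted p = 0.465). In the low-share libraries alone, where vehicle has 1 library assumed to vary like the other groups, it was -0.65 (adjusted p = 0.0248), and in the high-share libraries alone, where exemestane has 1, it was -0.08. Cnp showed the same arrangement, from 248 to 278 CPM in the low-share exemestane libraries, 389 CPM in replicate 5 and 358 to 409 CPM in vehicle. Its fold was -0.41 ± 0.10 as designed and -0.35 ± 0.10 with class. In the high-share libraries alone, Cnp, Septin4 and Sox10 stood at 0.06, 0.03 and 0.05, the opposite sign. Without exemestane replicate 5, their folds with class were -0.54, -0.45 and -0.38 (edgeR adjusted p = 0.0260, 0.0274 and 0.136), and without vehicle replicate 4 Sox10 stood at -0.12. Contactin 2 (Cntn2) and Padi2, which are also expressed by oligodendrocytes and stand outside the list, fell by 0.35 and 0.29 on the log2 scale as designed and stood at -0.28 ± 0.08 and -0.26 ± 0.08 with class.

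**Figure D3:**
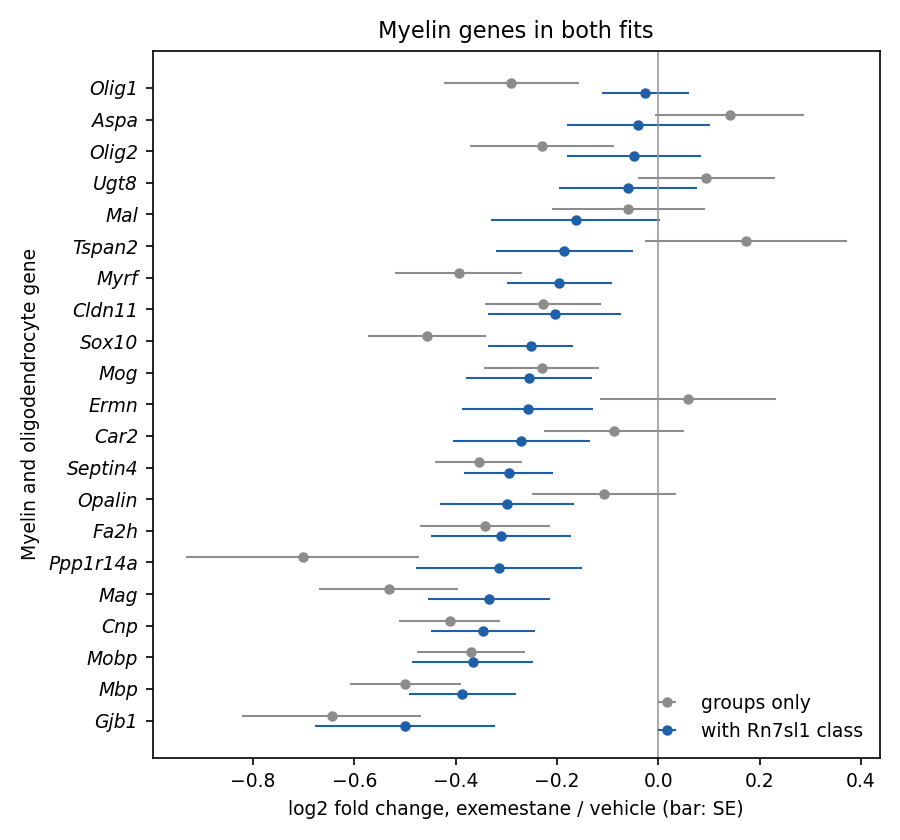
Log2 fold change, exemestane over vehicle (x axis; bars, SE), of 21 myelin and oligodendrocyte genes (y axis) with groups only (grey) and with Rn7sl1 class in the model (blue). All 21 blue points lie below 0, and 4 grey points lie above it.

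Dbp and Ciart, output genes of the circadian clock, were lower after exemestane. The clock activators Clock and Bmal1 bind E-boxes and drive repressors and output factors, among them the transcription factor Dbp and the repressor Ciart. Of 19 clock genes tested, 2 fell, Dbp and Ciart, and 0 rose, beside 2.45% and 4.06% of all genes tested. The list's median fold was -0.16 as designed. With class the median was -0.11, 16 of the 19 folds were negative and 5 had an unadjusted p under 0.05 (Dbp, Ciart, Per3, Nr1d2 and Tef). Over all genes tested, 7214 of 14411 folds were negative with class, and 3.57% of genes were lower at that p. The promoter windows of Dbp and Ciart, the 250 bases before the annotated start from RefSeq (build GRCr8), are shown because these 2 genes moved together while differing in the motif the activators bind. Capitals mark the E-box CACGTG. The Dbp window is chr1:105312006-105312255 (plus strand) and the Ciart window chr2:186112247-186112496 (minus strand).
Ciart: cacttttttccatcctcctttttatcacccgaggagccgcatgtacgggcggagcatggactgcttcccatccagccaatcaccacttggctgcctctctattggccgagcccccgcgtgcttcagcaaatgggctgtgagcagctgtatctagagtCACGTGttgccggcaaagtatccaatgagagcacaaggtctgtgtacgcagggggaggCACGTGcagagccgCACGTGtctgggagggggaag
Dbp: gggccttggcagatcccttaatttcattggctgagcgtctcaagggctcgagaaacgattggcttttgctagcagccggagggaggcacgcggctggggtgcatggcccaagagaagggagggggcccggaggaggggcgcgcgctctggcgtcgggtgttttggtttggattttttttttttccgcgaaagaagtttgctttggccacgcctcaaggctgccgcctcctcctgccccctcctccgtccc
The Ciart window holds 3 E-boxes, at -93 to -88, -35 to -30 and -21 to -16 from the start, and the Dbp window holds none. CACGTG, which reads the same on both strands, occurred in 5.59% of 33469 windows of the same length. Neither window held the D-box TTATGTAA, searched on both strands and found in 0.828% of windows. Of 17 clock genes with a window, 5 had an E-box in it, as did 8.50% of the 10427 genes tested that had a window. A match describes letters only, and the absence of a match is limited to these letters in this window.

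Dbp stood at 51.7, 58.0, 69.2, 65.3 and 67.9 CPM in exemestane replicates 1 to 5 and at 97.2, 77.4, 95.0, 82.8 and 86.9 CPM in vehicle replicates 1 to 5. All exemestane libraries were lower than all vehicle libraries, in both classes. The log2 fold change of Dbp was -0.49 ± 0.11 as designed (edgeR adjusted p = 0.0394) and -0.42 ± 0.12 with class (unadjusted p = 0.00153, adjusted p = 0.468). Ciart stood at 2.62, 4.04, 4.34, 3.52 and 4.06 CPM in exemestane and at 5.23, 5.82, 7.22, 4.57 and 6.19 CPM in vehicle. Its groups also did not overlap, with 21 to 39 counts against 34 to 57. Its fold was -0.64 ± 0.18 as designed and -0.66 ± 0.20 with class. The period genes Per1, Per2 and Per3 had folds as designed of -0.37 ± 0.13, -0.15 ± 0.09 and -0.21 ± 0.08, none of which passed (lowest edgeR adjusted p = 0.0645). The activators Clock and Arntl (Bmal1) stood at 0.27 ± 0.09 and 0.10 ± 0.08 and did not pass either. The labels used here give no time of day for tissue collection, and its part in these folds was not tested.

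Several further genes kept most of their fold with class, most with separated groups. None passed in edgeR with class (lowest adjusted p = 0.232), and some were named for a small p in that same fit. Dcbld1, a membrane protein with a discoidin domain, stood at 4.37, 3.76, 3.79, 5.43 and 4.31 CPM in exemestane replicates 1 to 5 and at 3.03, 3.31, 2.66, 2.82 and 2.28 CPM in vehicle. The groups did not overlap, and the high-share exemestane library lay in the middle of its group. Its log2 fold change was 0.62 ± 0.15 as designed and 0.74 ± 0.17 with class (unadjusted p = 0.000109, edgeR adjusted p = 0.255). Stk40, a kinase-like protein, had the smallest p with class of any gene called as designed. It stood at 29.7, 23.97, 30.95, 28.6 and 31.5 CPM in exemestane and at 40.9, 40.1, 43.3, 34.1 and 36.6 CPM in vehicle, again without overlap. The fold was -0.43 ± 0.08 as designed and -0.33 ± 0.07 with class (edgeR adjusted p = 0.232; DESeq2 adjusted p = 0.0474).

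Rims3, a protein of the presynaptic active zone, was at 8.37, 8.36, 9.24, 8.81 and 12.2 CPM in exemestane and at 13.1, 15.4, 24.4, 14.7 and 12.6 CPM in vehicle. Exemestane replicate 5 nearly reached the lowest vehicle library. The fold was -0.77 ± 0.16 as designed and -0.69 ± 0.18 with class. Sp8, a zinc finger transcription factor of interneurons born in the caudal ganglionic eminence, had the second largest fall, -1.75 ± 0.38 as designed and -1.52 ± 0.42 with class, but on 2 to 6 counts per exemestane library against 12 to 16 per vehicle library. Of 19 interneuron genes, 0 fell and 1, Cnr1, rose, with a fold of 0.35 ± 0.10 as designed and 0.18 ± 0.08 with class. Mapk12, a stress-activated kinase, and Susd5 fell by 0.95 and 0.96 on the log2 scale and stood at -0.84 ± 0.24 and -0.88 ± 0.27 with class. Zbtb20, a repressor that specifies hippocampal pyramidal neurons, was at 281, 245, 275, 250 and 250 CPM in exemestane and 205, 197, 207, 231 and 237 CPM in vehicle, all exemestane libraries being higher. Its fold was 0.27 ± 0.07 as designed and 0.23 ± 0.07 with class. Zbtb20 was 1 of 3 hippocampal field genes of 22 that rose, with Man1a1 and Calb1, while 0 fell. Over all genes tested, 4.06% rose and 2.45% fell as designed. The median fold of the hippocampal field genes was -0.12 as designed and 0.01 with class. The potassium channel subunit Kcna6 stood at -0.30 ± 0.08 as designed and -0.31 ± 0.09 with class, its groups overlapping. The class I major histocompatibility gene RT1-T24-4, a member of a family of near-identical genes whose counts may be shared, stood at -0.75 ± 0.20 and -0.76 ± 0.22 with separated groups.

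**Figure D4:**
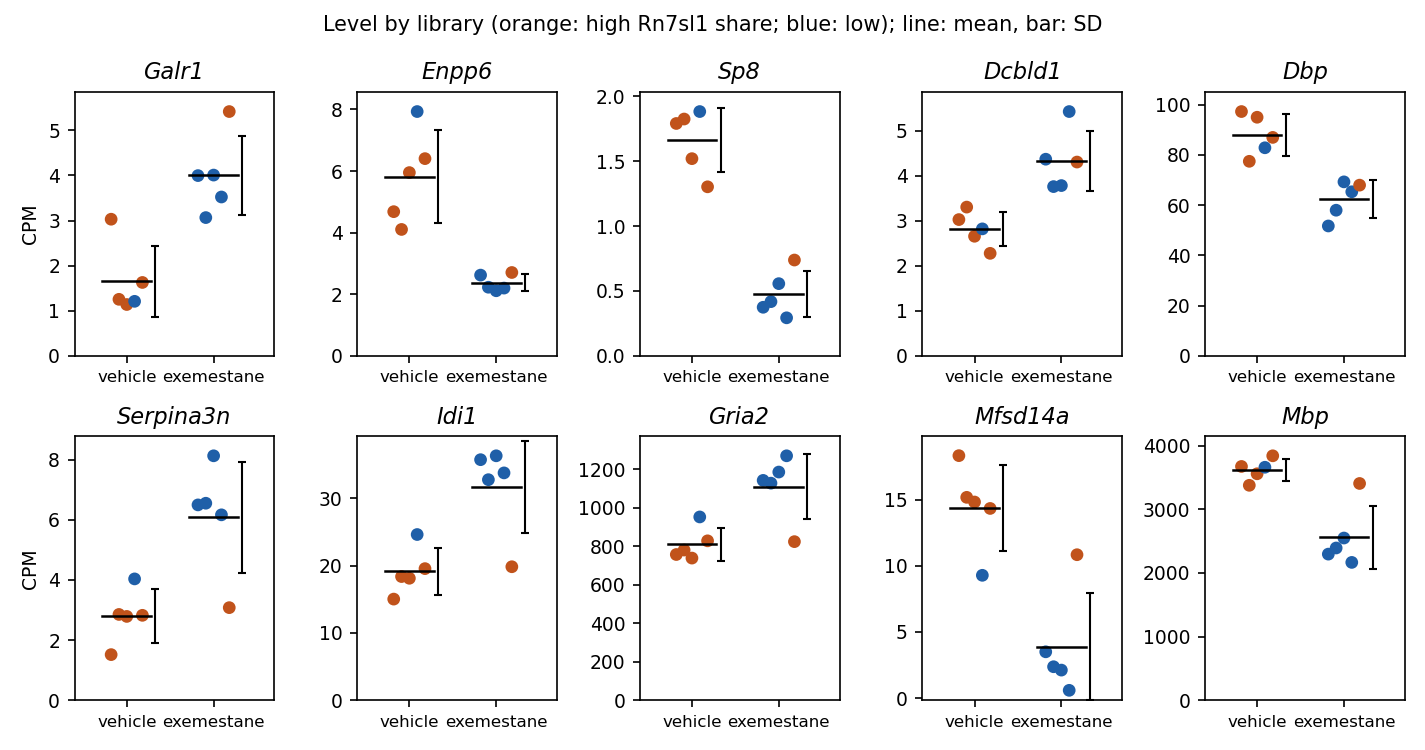
Level (y axis, CPM) of 10 genes in the 5 vehicle and 5 exemestane libraries, coloured by Rn7sl1 class; lines mark means and bars SD. In the upper row the groups separate in both classes; in the lower row exemestane replicate 5 (orange) sits near the vehicle libraries or between the groups.

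Other called genes had folds that shrank more with class than with the continuous share. Serpina3n, an acute-phase protease inhibitor of reactive astrocytes, stood at 6.49, 6.55, 8.13, 6.16 and 3.08 CPM in exemestane replicates 1 to 5 and at 1.51, 2.85, 2.79, 4.03 and 2.82 CPM in vehicle. The high-share exemestane library was close to the high-share vehicle libraries, and the low-share vehicle library was the highest of its group. The fold was 1.11 ± 0.34 as designed (edgeR adjusted p = 0.0469) and 0.35 ± 0.26 with class, or 0.13 with class when vehicle replicate 4 was left out. Of 19 reactive astrocyte genes, Serpina3n was the only one called, and of 19 astrocyte genes 0 were called, beside 6.51% of all genes tested. LOC689229, an uncharacterised locus, had the largest rise among named genes. It stood at 2.62, 5.16, 7.01, 7.78 and 0.246 CPM in exemestane and at 1.38, 0.342, 0.253, 1.75 and 0.217 CPM in vehicle, so exemestane replicate 5 lay at the low end of the vehicle libraries. Its fold was 2.57 ± 0.67 as designed, 1.43 ± 0.60 with class and -1.04 in the high-share libraries alone. Crp, the gene of C-reactive protein, went from 1.081 ± 0.34 to 0.46 ± 0.29, and Adgb, androglobin, from 0.94 ± 0.29 to 0.22 ± 0.14. Without vehicle replicate 4 Adgb stood at 0.09 with class. Idi1, an isomerase of cholesterol synthesis, was at 35.7, 32.7, 36.3 and 33.8 CPM in the low-share exemestane libraries and 19.8 CPM in replicate 5, against 15.01, 18.4, 18.1, 24.6 and 19.5 CPM in vehicle. Its fold went from 0.73 ± 0.19 to 0.31 ± 0.14. With the continuous share, the folds of Serpina3n, LOC689229, Crp, Adgb and Idi1 were 0.86, 2.14, 0.89, 0.70 and 0.58. Each had an edgeR adjusted p under 0.05 in that fit. Of 23 cholesterol genes, Hmgcs1, Idi1 and Nsdhl rose and Tm7sf2 fell, beside 4.06% and 2.45% of all genes tested. The median fold of the cholesterol genes was 0.06 as designed and 0.05 with class.

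Gria2, the AMPA receptor subunit that limits calcium entry, was at 1143, 1129, 1187, 1271 and 825 CPM in exemestane and 758, 781, 739, 953 and 829 CPM in vehicle. The fold was 0.45 ± 0.13 as designed and 0.14 ± 0.07 with class, or 0.07 with class without vehicle replicate 4. With the continuous share it was 0.34 (edgeR adjusted p = 0.000238). Of 22 glutamate receptor genes Gria2 and Gria4 rose, and of 13 GABA-A receptor subunits Gabra2 and Gabra5 rose, while 0 of either list fell. Over all genes tested, 4.06% rose and 2.45% fell as designed. The median folds of these lists were 0.06 and 0.16 as designed and 0.10 and 0.10 with class. Gabra5, a subunit of tonic inhibition in pyramidal cells, had separated groups, 131 to 150 CPM against 97.1 to 123 CPM. Its fold of 0.33 ± 0.08 became 0.21 ± 0.07 with class. In the low-share and the high-share libraries alone the fold of Gabra5 was 0.28 and 0.25. The chaperone Hsp90aa1 went from 0.42 ± 0.12 to 0.11 ± 0.07, or to 0.05 without vehicle replicate 4. With the continuous share Hsp90aa1 stood at 0.32. Mfsd14a, a transporter-like membrane protein, had the largest fall among named genes. It was at 3.50, 2.37, 2.12, 0.587 and 10.8 CPM in exemestane and 18.3, 15.2, 14.8, 9.28 and 14.3 CPM in vehicle, so exemestane replicate 5 overlapped the vehicle libraries. Its fold went from -1.87 ± 0.51 to -1.13 ± 0.34.

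Immediate-early genes, which report recent neuronal activity and also handling, had negative folds in 19 of 22 cases. Over all genes tested, 7498 of 14411 folds were negative as designed. Of the 22, Junb, Egr4 and Dusp1 fell and 0 rose, beside 2.45% and 4.06% of all genes tested. The list's median fold was -0.49 as designed and -0.32 with class. Junb stood at 15.5, 18.3, 24.9, 16.4 and 31.02 CPM in exemestane and at 31.3, 35.4, 64.1, 18.3 and 44.1 CPM in vehicle. Its low-share vehicle library lay among the low-share exemestane libraries and its high-share exemestane library just under the high-share vehicle libraries. The fold was -0.86 ± 0.25 as designed and -0.43 ± 0.23 with class, and 0.03 in the low-share libraries alone. Fos and Arc, 2 of the best-known members, stood at -1.14 ± 0.39 and -0.86 ± 0.28 as designed and did not pass (edgeR adjusted p = 0.0605 and 0.0531). Vehicle replicate 3 was the highest library of all 10 for Junb, Egr4 and Dusp1. Without it Dusp1 went from -0.84 to -0.51 as designed (edgeR adjusted p = 0.152) and from -0.66 to -0.39 with class, and Junb from -0.43 to -0.23 with class.

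Calls among genes of vessels, microglia and connective tissue stand beside 6.51% called over all genes tested. Of 16 endothelial genes the claudin Cldn5 and the adhesion molecule Esam fell, of 21 microglial genes the receptor Csf1r and Tmem119 fell, and 0 rose in either list. As designed, 12 of the 21 microglial folds were positive and 9 negative, with a median of 0.02 (-0.07 with class). Of the endothelial folds, 6 were positive and 10 negative as designed, with a median of -0.16 (-0.08 with class). Esam had separated groups, 6.12 to 7.04 CPM against 7.80 to 9.64 CPM, and a fold of -0.43 ± 0.13 that became -0.31 ± 0.14 with class. The proteoglycan Dcn was at 25.6, 34.3, 26.7, 23.04 and 16.001 CPM in exemestane and 12.3, 16.5, 13.04, 16.8 and 11.9 CPM in vehicle. The fold of Dcn was 0.83 ± 0.19 as designed and 0.64 ± 0.20 with class, and it was the only one of 25 fibroblast genes called. The summed level of those 25 ran from 284 to 1026 CPM in exemestane and from 356 to 909 CPM in vehicle. Of 16 choroid plexus genes 0 passed, with summed levels of 83.7 to 3143 CPM against 113 to 4564 CPM. Of 14 pericyte genes, 13 mitochondrially encoded protein genes and 16 striatum and cortex genes 0 passed as well. Their folds still leaned to 1 side. Of the striatum and cortex folds, 15 were negative as designed (median -0.30) and 13 with class (-0.18). The mitochondrial folds were positive in 12 cases as designed (median 0.175) and in 4 with class (-0.04). Of the pericyte folds, 11 were negative as designed (median -0.16) and 9 with class (-0.11). Medians over all genes tested were -0.01 and 0.00. Of 15 thalamus and habenula genes Plekhg1 rose, at 0.31 ± 0.09 as designed and 0.20 with class, and of 9 ependymal genes Pltp fell, at -0.36 ± 0.11 and -0.26. The part of dissection in these folds was not tested.

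Genes of steroid synthesis and response are given next. Cyp19a1, the drug's target, was at 0.4996, 1.67, 1.002, 1.91 and 1.60 CPM in exemestane and 1.102, 0.912, 1.52, 0.941 and 0.760 CPM in vehicle, and the groups overlapped. Its fold was 0.34 ± 0.41 (edgeR adjusted p = 0.590), an interval too wide to show a modest change at this depth. The progesterone receptor Pgr, a classical estrogen target, stood at 22.4 ± 2.30 CPM in exemestane and 22.02 ± 3.01 CPM in vehicle (SD, n = 5 each), with a fold of 0.03 ± 0.10. The estrogen receptor Esr1 stood at 0.31 ± 0.28, Esr2 at -0.28 ± 0.41 and the membrane receptor Gper1 at 0.06 ± 0.41 as designed, and none passed. The glucocorticoid receptor Nr3c1 stood at 0.30 ± 0.12 as designed (edgeR adjusted p = 0.0872) and 0.01 ± 0.06 with class.

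Against 6.51% of all genes tested, calls in the steroid lists numbered 0 to 2 a list. Of 13 steroid receptor and cofactor genes, Nrip1, a corepressor of nuclear receptors, was the only one called. It had a fold of 0.31 ± 0.09 as designed and 0.13 ± 0.07 with class. It was also the only one of 17 estrogen-responsive genes called. Of 14 neurosteroid enzymes 0 passed, and of 17 androgen-responsive genes 0 passed, with median folds of -0.05 and -0.12 as designed and -0.04 and -0.02 with class. Fkbp5, a chaperone gene induced by androgens and glucocorticoids, was at 50.03 ± 0.822 CPM in exemestane and 47.6 ± 7.10 CPM in vehicle. Of 19 glucocorticoid-responsive genes Dusp1 and Tle3 fell.

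The comparisons of every drug with vehicle share the same 5 vehicle libraries, so levels across the 7 groups are given as well. The means here and in the next paragraph are without the class term. Low-share libraries numbered from 0 in sham and estradiol to 5 in raloxifene, so these means do not separate treatment from class. Galr1 averaged 4.002 ± 0.881 CPM in exemestane, 3.09 ± 0.837 in tamoxifen, 2.64 ± 1.14 in sham, 2.41 ± 1.26 in anastrozole, 2.34 ± 0.838 in estradiol, 1.75 ± 0.823 in raloxifene and 1.65 ± 0.793 in vehicle (SD, n = 5 each). Neighbours in this order overlapped. Exemestane had the highest mean and vehicle the lowest. Enpp6 averaged 2.38 ± 0.270 CPM in exemestane and 2.59 ± 0.311 in estradiol, and between 3.57 and 5.81 in the other 5 groups. Its SD there was 1.26 to 2.50 CPM, so the low-level groups were also the least variable. The ranges of exemestane, 2.12 to 2.71 CPM, and estradiol, 2.33 to 3.11 CPM, overlapped. Zbtb20 had its highest mean in exemestane, 260 ± 16.5 CPM, against 202 to 248 CPM in the other groups. RT1-T24-4 had its lowest mean in exemestane, 4.97 ± 1.04 CPM, against 6.64 to 8.52 CPM.

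For some other genes vehicle had the highest mean of the 7 groups. Dbp averaged 87.9 ± 8.26 CPM in vehicle and 56.6 to 71.3 CPM in the other 6 groups, exemestane among them at 62.4 ± 7.42. Mbp averaged 3621 ± 170 CPM in vehicle, 3386 ± 750 in sham, 3083 ± 106 in estradiol and 2561 to 2849 in the 4 drug groups. Sp8, Susd5, Stk40 and Mapk12 had their highest mean in vehicle and their lowest in exemestane. For Dbp and Mbp a level particular to exemestane cannot be told apart from one particular to these vehicle libraries by the comparison with vehicle alone.

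**Figure D5:**
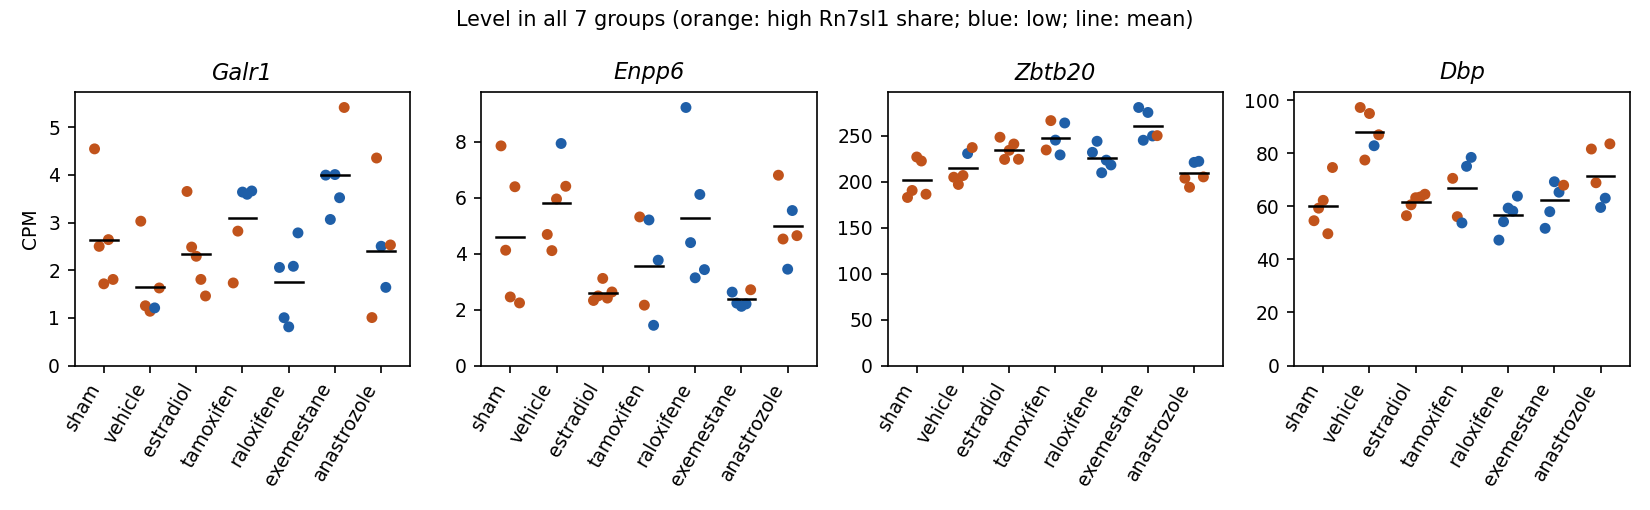
Level (y axis, CPM) of Galr1, Enpp6, Zbtb20 and Dbp in the 5 libraries of each of the 7 groups (x axis), coloured by Rn7sl1 class, with lines at the means. Galr1 and Zbtb20 have their highest mean in exemestane, Enpp6 is low in exemestane and estradiol, and Dbp is highest in vehicle.

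Against raloxifene, a selective estrogen receptor modulator whose 5 libraries were all of low share, the edgeR count with class was 0 (0.0%), and 657 genes had an unadjusted p under 0.05. Without class the count was also 0, and 423 genes reached that p. DESeq2 was not run on this comparison. In this comparison the folds with class were 1.15 ± 0.35 for Galr1, -1.15 ± 0.34 for Enpp6, 0.22 ± 0.06 for Zbtb20 and -0.78 ± 0.20 for RT1-T24-4, each at an adjusted p of 0.979. Dbp stood at 0.12 ± 0.11, Mbp at -0.08 ± 0.10 and Stk40 at -0.04 ± 0.07 in that comparison.

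Against anastrozole, a non-steroidal aromatase inhibitor that binds reversibly and was given at 4.03 against 0.16 mg per kg, the edgeR count with class was 4 genes (0.0278%), 3 higher (0.0208%) and 1 lower (0.00694%) in exemestane. The doses differ, so compound and dose cannot be told apart. Chm, an escort protein for the lipid modification of Rab proteins, stood at 49.1, 55.2, 49.99, 53.9 and 33.2 CPM in exemestane and 23.9, 23.8, 33.9, 45.4 and 21.7 CPM in anastrozole replicates 1 to 5. Its high-share exemestane library lay above the 3 high-share anastrozole libraries and its low-share exemestane libraries above both low-share ones. It rose by 0.45 ± 0.07 relative to anastrozole (edgeR adjusted p = 0.00772). Ccdc88a, the actin-binding protein girdin, rose by 0.31 ± 0.06 and the unnamed entry UNKNOWN_ENSRNOG00000062127 by 0.34 ± 0.06, and Chpf, a chondroitin polymerising factor, fell by 0.28 on the log2 scale. When each library was left out in turn, Chm stayed called in 9 of 10 fits and the other 3 genes in 3 or 4. Without class the edgeR count was 0, and 3900 genes had an unadjusted p under 0.05. Galr1 stood at 0.76 ± 0.34 and Enpp6 at -1.05 ± 0.35 against anastrozole, and neither passed (edgeR adjusted p = 0.341 and 0.180). Ciart stood at -0.63 ± 0.19 and Dbp at -0.14 ± 0.12. The aromatase gene Cyp19a1 was at 1.34 ± 0.575 CPM in exemestane and 1.21 ± 0.587 CPM in anastrozole (SD, n = 5 each).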

How the data were processed

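RNA sequencing of rat hippocampus was analysed from the authors' gene table. Per the labels' protocols, RNA with a quality value above 7 was poly(A)-selected and sequenced with strand kept. Per the submitters' processing notes, Salmon and DESeq2 were used. Versions, genome build and annotation are not given in the sources used here. The deposited expected counts were whole numbers and were used as such, and a deposited normalized signal table by the authors served to recover their per-gene factors. Of 15059 genes, 13091 matched RefSeq symbols and 1132 carry Ensembl identifiers only. Every listed gene has counts in at least 8 libraries.

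All 35 libraries were fitted in edgeR 4.0.16 (R 4.3.3, limma 3.58.1; TMM factors, filterByExpr, robust quasi-likelihood F-test), with 7 groups alone (as designed) or with Rn7sl1 class, divided at 4.16% in the middle of the widest gap. The common biological coefficient of variation was 0.152 and 0.122. Adjusted p values are Benjamini-Hochberg over 14411 genes, and DESeq2 1.42.0 was an alternative. The procedure was also run on simulated data, and the outcome is not given here. SE were derived from the fold and its F statistic. Other alternatives were RLE factors, no count filter, the authors' factors, Rn7sl1 removed, Ttr as covariate, a continuous share, libraries of 1 class, and each library left out. Fitting exemestane and vehicle libraries alone with class was added after the data were seen.

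Members and lists were chosen with earlier results of these data known. Named genes included the 12 largest rises and falls with a symbol, at least 1 CPM and at least 4 of 5 exemestane libraries beyond every vehicle library but 1. Added to these were the 12 of smallest p with class, up to 4 called members per list and the 5 of smallest p against each drug. A fixed set held receptors and other genes, among them Galr1, Gal, Enpp6, Dcn, Serpina3n, Mbp and Dbp. Others (Cntn2, Padi2, UNKNOWN_ENSRNOG00000062127 and further list members) were chosen after their values were seen. Replicate numbers follow deposit order and pair nothing. Values of some genes are not reported here.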

Additional observations from a re-analysis of the deposited data

Results flagged for a closer look

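Within a group of 5, a library was marked when its gap to the next library exceeded Dixon's 95% limit. Of 178 groups tested (89 named genes in exemestane and in vehicle), 26 were marked. Chance marks about 1 in 20 for genes chosen without these values, a rate that does not hold here. Named genes, a fixed set aside, were chosen from values of these same libraries. The rule for the rises and falls lets 1 exemestane library stray, and Rn7sl1 itself defines the class. Exemestane replicate 5, of high Rn7sl1 share, accounted for 19 and vehicle replicate 4, of low share, for 3.

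Exemestane replicate 5 was set apart from its group for genes that it held at low levels: LOC500584 at 7.14 CPM, Lrif1 at 10.2, Dzip3 at 80.0, Idi1 at 19.8, Hsp90aa1 at 861, Ttc9c at 24.4, Chm at 33.2 and Ccdc88a at 115. It was set apart at high levels for Rn7sl1 itself, at 58247 CPM, and for Mfsd14a at 10.8, Ftl1 at 61.3, Rims3 at 12.2, Gstt3 at 32.5, Cnp at 389, Oprd1 at 4.18, Cldn5 at 31.8, Tm7sf2 at 14.3, Ndufa8 at 75.9 and Chpf at 98.0. Vehicle replicate 4 was set apart by Rn7sl1 at 33533 CPM, Ftl1 at 55.5 and Cpsf6 at 188. The others were Galr1 at 3.03 CPM in vehicle replicate 1, Frat2 at 4.68 in vehicle replicate 2, and Rims3 at 24.4 and Cnr1 at 225 in vehicle replicate 3.

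Exemestane differed from the other aromatase inhibitor, anastrozole, in a direct edgeR test with class for 4 genes. The log2 differences were 0.45 for Chm, 0.31 for Ccdc88a, 0.34 for UNKNOWN_ENSRNOG00000062127 and -0.28 for Chpf. All 4 genes also differed between the Rn7sl1 classes (edgeR, adjusted p under 0.05), and no test of class beyond its term in the model was made.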

How the results depend on the processing

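As designed, the 938 calls against vehicle became 1917 with DESeq2, 134 with the authors' factors, 1520 with Ttr as a covariate and 0 in the 2 groups alone, and ranged from 0 to 4155 with a library left out. RLE factors (947), no count filter (820) and removal of Rn7sl1 (979) stayed within 1.5 times. With class, the 0 calls became 8 with DESeq2, 2272 with a continuous share and 110 in low-share libraries alone, and ranged from 0 to 9 with a library left out; the cause was not tested. Against raloxifene the count ranged from 0 to 1 with a library left out, and against anastrozole, 4 calls, from 0 to 22, with 0 without class. The difference in Rn7sl1 share ranged from -0.829 to -0.255. Among the 75 named genes called as designed, folds changed sign in the high-share libraries alone, with 1 exemestane library, for LOC689229 (-1.04), Lrif1 (-0.0774), Gna12 (0.00667), Cnp (0.0567), Septin4 (0.0273), Sox10 (0.0454), Calb1 (-0.00278) and Gria4 (-0.0699), and in the low-share libraries alone, with 1 vehicle library, for Junb (0.0331). No other setting run reversed these 75; folds of named genes not called, such as Esr1 and Ttc9c, did cross 0. Genes of low counts, such as Sp8 and Cyp19a1, are limited by depth. No paired analysis was possible because replicate numbers follow deposit order and no label ties libraries across groups.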
